A study of Homo sapiens with 6 samples.

Results

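Imprinted genes are expressed mainly from the copy inherited from 1 parent, and they lie in clusters under the control of shared elements whose DNA methylation differs between the parental copies. Of 43 human imprinted genes named for this study, 42 were found in the RefSeq gene table and are described here (36 protein-coding genes and 6 long noncoding RNA genes, in 19 clusters), out of 59084 genes of all kinds. SLC22A18 was not analysed here. The genes were chosen by name, and a peak was given to a gene when it shared at least 1 bp with the gene's span plus 5 kb on either side, called its window below.

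The peaks are those of lactylated lysine 5 of histone H4 (H4K5la), an acyl mark made from lactate, located by ChIP-seq (sequencing of antibody-bound chromatin) in PLC/PRF/5, a hepatocellular carcinoma cell line. Cells of the lactate group were cultured with 20 mM lactate for 24 h (libraries 2 and 3), and control cells were not (libraries 2 and 3). Both groups are the same line with the same antibody, and the 2 inputs, which come without peaks, were not used here. Nothing in the labels says whether the libraries of a group came from separate cultures, so the spread between them may be technical.

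In imprinted clusters, long noncoding RNAs such as KCNQ1OT1, AIRN and MEG3 are transcribed from 1 parental copy and are linked to silencing or expression of their neighbours. Differentially methylated elements are bound by zinc finger proteins such as ZFP57 and, at H19, by CTCF. Several imprinted growth genes of the fetal liver, among them IGF2, H19, DLK1 and PEG10, are known to be expressed again in liver cancer. A peak list carries no allele information, so nothing below refers to a parental copy. Peaks also say nothing of the RNA level of a gene.

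The lactate lists held 37951 and 38402 peaks that covered 22 and 21.8 Mb, against 52215 and 52959 peaks covering 41 and 41 Mb in the control lists. The median peak was 448 and 437 bp wide in lactate libraries and 547 and 537 bp wide in control libraries. ChIP reads per input read, recovered from the deposited values, were 1.17 and 1.32 in lactate libraries and 1.42 and 1.34 in control libraries. Both lactate libraries lay below both control libraries in this ratio, but lactate library 3 (1.32) and control library 3 (1.34) lay close together. The ratio also depends on the depth of the input. The part of this difference in the results below was not tested. Windows with fewer or narrower peaks are therefore read beside the share of other genes that moved the same way. Among 8 hepatocyte markers, APOA1 and HNF4A held a peak in every library while ALB, AFP, APOB, TTR and FGB held none and SERPINA1 held 1 in control library 3 only. Of 6 markers of other liver cells, PECAM1 and COL1A1 held a peak in every library, CD68 in both control libraries only, ACTA2 in both lactate libraries only, and PTPRC in none. KRT19 held a peak in both lactate libraries and control library 3 and was covered more in both lactate libraries.

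H4K5la peaks were found at most imprinted genes, and they covered less of the windows after lactate. A peak was present in all 4 libraries at 25 of 42 imprinted genes (59.5%), against 19% of genes of all kinds. Protein-coding members had this pattern in 21 of 36 cases (58.3%), against 33% of protein-coding genes, and members of at least 100 kb in 8 of 12 cases (66.7%), against 43% of protein-coding genes of that length. These shares describe named genes, 16 of which sit in 8 pairs with overlapping windows, and so they are not independent draws. The number of members with a peak was 28 and 30 in lactate libraries and 30 and 32 in control libraries.

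The covered length lay below both control libraries in both lactate libraries at 20 of the 42 genes, or 47.6%, against 19.3% of all genes. Among protein-coding members it did so at 16 of 36 (44.4%, against 32.8% of protein-coding genes), and among members of at least 100 kb at 6 of 12 (50%, against 36.3%). The opposite pattern was found at ZIM2 and PEG3 only, which hold the same peak (2 of 42, or 4.76%, against 2.41% of all genes, and 2 of 36 coding members, or 5.56%, against 3.4%). RB1 was the only member with a peak in both control and neither lactate library (2.38%, against 3.97% of all genes). No member had a peak in both lactate and neither control library, a pattern found at 0.89% of all genes. The exact two-sided permutation test over 6 assignments of the libraries bottoms out at p = 0.333, which each gene without overlap reaches, so the lack of overlap is given here as a description.

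Among the 25 genes with a peak in every library, the ratio of lactate to control covered length had a median of 0.502 and ran between 0.259 at MEG3 and 1.4 at SNRPN and MCTS2. The median was 0.599 over the 6601 protein-coding genes with a peak in every library, and 88% of the members and 87.5% of those coding genes lay below 1. Of these 25 members, 19 were covered less and 6 overlapped between the groups, namely SNRPN, ATP10A, GNAS, PEG10, PLAGL1 and MCTS2. The share covered less among other genes with a peak in every library was not computed, so the 19 have no background here. When each list was held to its 37951 peaks of highest -log10 p, 12 of the 42 members were covered less, against 12.4% of all genes and 21% of protein-coding genes.

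**Figure D1:**
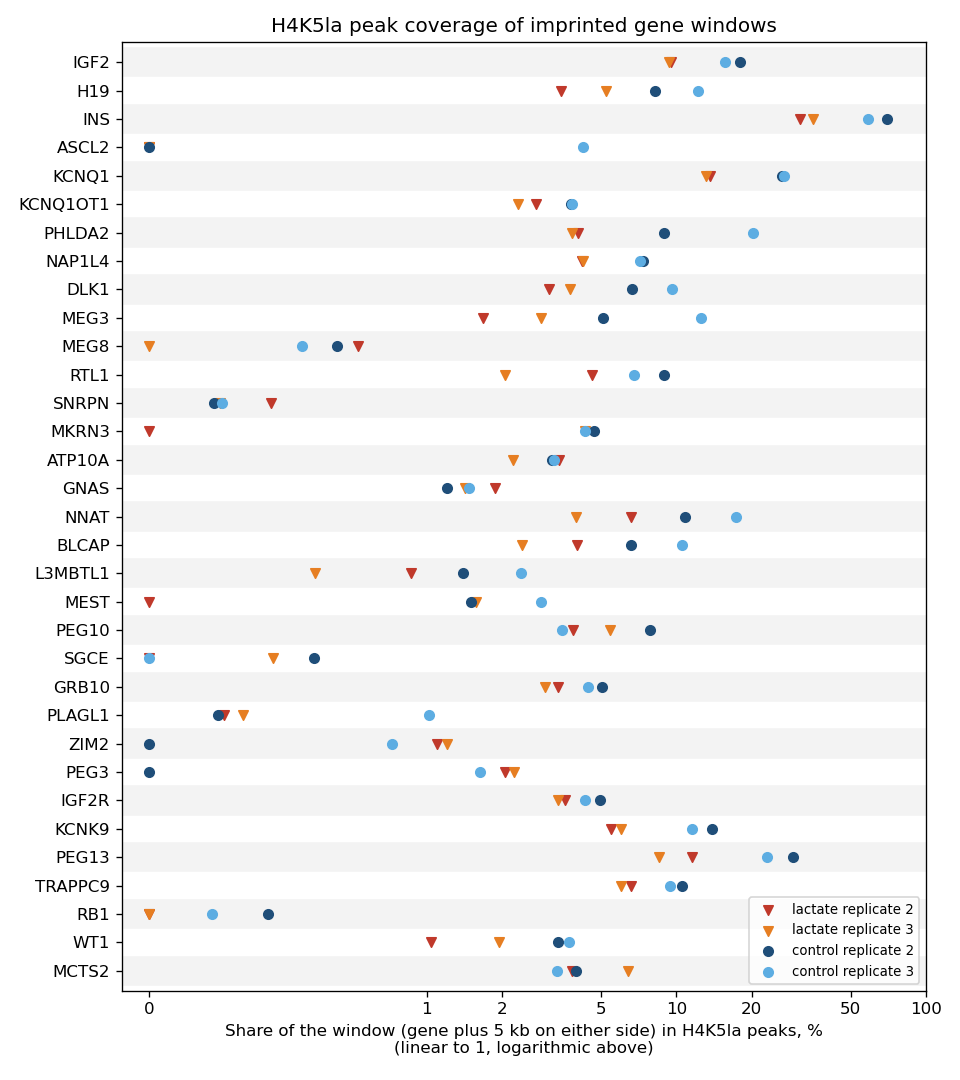
Share of each window (gene plus 5 kb on either side) in H4K5la peaks, in percent on an axis that is linear to 1 and logarithmic above, for the 33 imprinted genes with a peak in any library; triangles are the lactate libraries and circles the control libraries. INS has the highest covered share, at 31.2 and 35.1% with lactate and 70 and 58.4% in control libraries, and at ZIM2 and PEG3 both lactate libraries lie to the right of both control libraries.

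Over the 34 merged windows (3.49 Mb) the libraries differed more in width than in number of peaks. The windows held 252 and 245 peaks in lactate libraries and 305 and 298 peaks in control libraries, a ratio of 0.824. They were covered over 150220 and 142679 bp with lactate and over 263883 and 259720 bp in control libraries, a ratio of 0.559, and the ratio over all gene windows was 0.528 (exact permutation p = 0.333). Wide peaks, of 2 kb or more, numbered 3 and 3 in lactate libraries and 21 and 23 in control libraries, and the median width was 452 and 455 bp with lactate against 618 and 609 bp in control cells. The median number of reads at a summit was 20 and 23 in lactate libraries and 22 and 23 in control libraries, so the groups overlapped in that measure. KCNQ1 and TRAPPC9 together made up between 69.2 and 70.9% of the covered length in each library.

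Peaks that overlap between libraries were joined into regions, 390 of them in the member windows. Of these, 132 held a peak in all 4 libraries (33.8%, against 28.8% of all 71122 regions). A further 48 held one in both control and neither lactate library (12.3%, against 14.6%), and 14 in both lactate and neither control library (3.59%, against 2.75%). These shares lie near those of the whole set of regions.

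**Figure D2:**
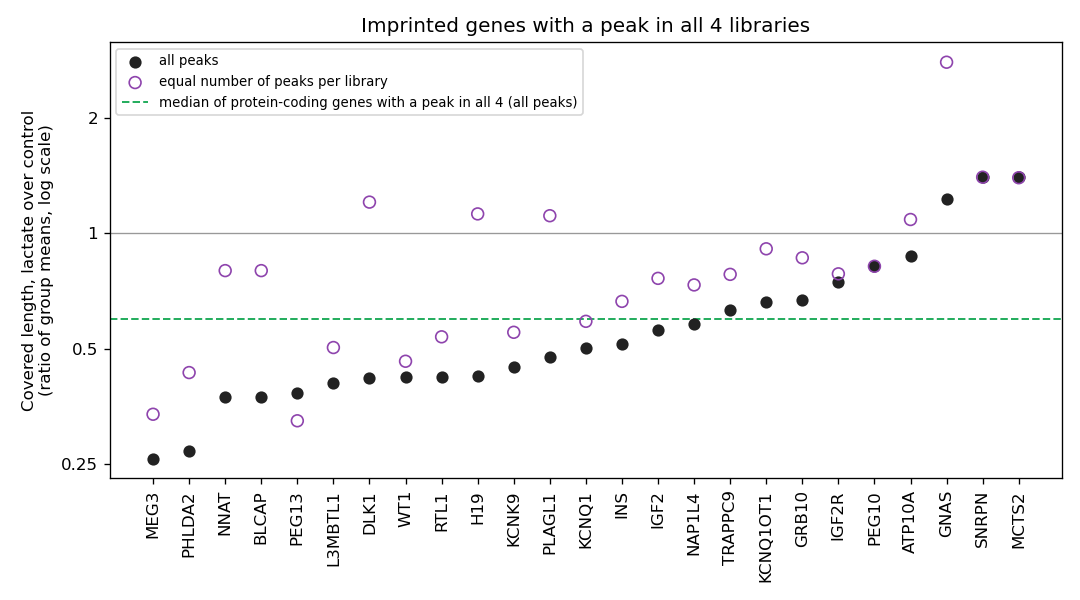
Ratio of the group means of covered length, lactate over control, on a log scale for the 25 imprinted genes with a peak in all 4 libraries; filled points use all peaks, open points an equal number of peaks per library, and the dashed line is the median of protein-coding genes with all peaks (0.599). With all peaks 22 of 25 genes lie below 1, and DLK1, H19, PLAGL1 and ATP10A move above 1 with equal numbers of peaks.

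KCNQ1 had the greatest covered length of the members, over 13.6 and 13.1% of its window with lactate and 26.4 and 27% in control libraries. It encodes a voltage-gated potassium channel subunit and spans 404 kb of chromosome 11 (2445008 to 2849105). Its window held 74 and 75 peaks over 56455 and 54442 bp in lactate libraries, and 82 and 75 peaks over 109388 and 111693 bp in control libraries. The number of peaks overlapped between the groups, but the covered length did not, with a lactate mean of 55448 ± 1423 bp against a control mean of 110540 ± 1630 bp (SD, n = 2 each) and a ratio of 0.502. The widest peaks were 2098 and 2463 bp with lactate, against 6707 and 5801 bp in control libraries. The 6707 bp peak lies at positions 2736316 to 2743022, in the part of KCNQ1 above KCNQ1OT1. The largest number of reads at a summit of KCNQ1 was 44 and 43 with lactate and 37 and 39 in control libraries. It was higher in both lactate libraries, although the window as a whole was covered less.

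Peaks were thin within KCNQ1 where the silencing RNA KCNQ1OT1 is transcribed. The 91.7 kb span of KCNQ1OT1 was covered over 3.03 and 2.57% with lactate and over 3.8 and 3.79% in control libraries. The 163 kb of KCNQ1 below it were covered over 16 and 14.4% with lactate and over 29.9 and 32.1% in control libraries. The 149 kb above it were covered over 18.5 and 19.1% with lactate and over 37.3 and 36.3% in control libraries. In every library the KCNQ1OT1 span was thus the least covered part of KCNQ1. Its own window held 2775 and 2357 bp of peaks with lactate and 3837 and 3888 bp in control libraries (ratio 0.664), and with equal numbers of peaks the groups overlapped. A region at 2651931 to 2652342, inside both genes, held a peak in both lactate libraries (fold enrichment 11.1 and 10.4, the authors' value at the peak) and in neither control library.

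**Figure D3:**
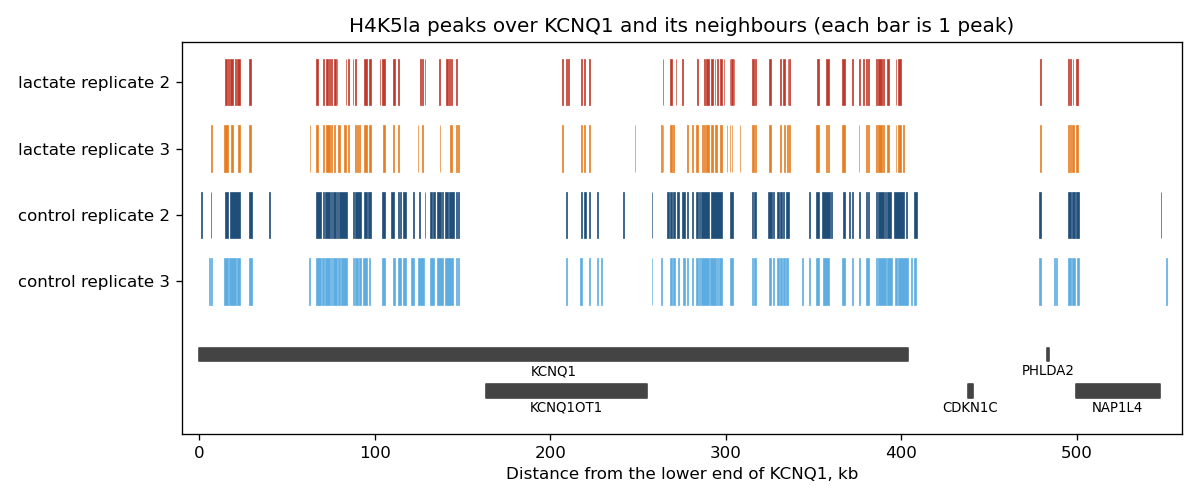
Peaks of each library over KCNQ1 and its neighbours on chromosome 11, drawn by distance in kb from the lower end of KCNQ1; each bar is 1 peak of a member window (peaks more than 5 kb from these genes are not drawn), no narrower than its thin outline, and the dark boxes are the gene spans. All 4 libraries have few peaks over KCNQ1OT1 and none within 5 kb of CDKN1C, and the control peaks on either side of KCNQ1OT1 run together into wide blocks.

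The neighbours of KCNQ1 were covered unevenly. PHLDA2, which encodes a pleckstrin homology protein that restrains placental growth, held 451 and 426 bp of peaks with lactate and 991 and 2248 bp in control libraries (ratio 0.271). The peak shared by its 4 libraries lies below the gene, in the 5 kb flank. NAP1L4, a histone chaperone gene, held 2417 and 2443 bp with lactate and 4240 and 4144 bp in control libraries (2430 ± 18.4 against 4192 ± 67.9 bp, SD, n = 2 each; ratio 0.58), with its peaks gathered at its lower end. At both genes the groups did not overlap, which did not hold over the gene spans without flanks, where PHLDA2 held no peak. CDKN1C, the cyclin-dependent kinase inhibitor gene of this domain, held none in any library, and the nearest peak was 24.7 and 6.11 kb away with lactate and 6.55 and 6.15 kb away in control libraries. ASCL2, a placental transcription factor gene, held a peak in control library 3 only. The whole domain of 734 kb was covered over 81469 and 81513 bp with lactate and over 179987 and 187301 bp in control libraries, a ratio of 0.444.

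INS, IGF2 and H19 make up the neighbouring domain of chromosome 11. INS, the insulin gene (2159779 to 2161209), is silent in liver but lies inside the read-through gene INS-IGF2, and its window had the highest covered share of all members in every library. A peak ran over most of INS in every library, 2093 and 2084 bp wide with lactate and 3089 and 3327 bp wide in control libraries. It passed the start of INS in lactate library 2 and both control libraries and ended 49 bp short of it in lactate library 3. The INS window held 3568 and 4007 bp of peaks with lactate and 8004 and 6681 bp in control libraries (3788 ± 310 against 7342 ± 936 bp, SD, n = 2 each; ratio 0.516), without overlap of the groups, which did not hold over the gene span alone. The largest number of reads at a summit of INS was 40 and 46 with lactate and 32 and 38 in control libraries, numbers not scaled for depth or background. The best fold enrichment at INS was 5.56 and 5.96 with lactate and 7.06 and 8.98 in control libraries, so the reads and the fold ran in opposite directions. The INS promoter window of 300 bases is shown because it is 1 of only 2 member promoter windows touched by a peak in all 4 libraries, over 56 and 1 bp with lactate and 229 and 234 bp in control libraries; CG pairs are in capitals, 7 in all, the G and C share is 63%, and the window lies on the minus strand of chr11:2161160-2161459 (GRCh38.p14).
INS promoter: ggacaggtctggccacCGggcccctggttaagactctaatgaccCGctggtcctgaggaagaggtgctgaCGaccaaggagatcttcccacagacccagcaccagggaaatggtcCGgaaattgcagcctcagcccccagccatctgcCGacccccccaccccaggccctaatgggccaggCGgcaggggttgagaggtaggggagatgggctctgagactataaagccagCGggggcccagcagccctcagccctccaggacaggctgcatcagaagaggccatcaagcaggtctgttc

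IGF2, the fetal insulin-like growth factor, held 6 peaks in each library. They covered 2890 and 2847 bp with lactate and 5465 and 4770 bp in control libraries (2868 ± 30.4 against 5118 ± 491 bp, SD, n = 2 each; ratio 0.561). With equal numbers of peaks, control library 3 held 2764 bp and the groups overlapped. H19, the long noncoding RNA gene that shares enhancers with IGF2, held 556 and 842 bp of peaks with lactate and 1317 and 1969 bp in control libraries (ratio 0.425). All of the H19 peaks but 1 lay below the gene, at its 3′ side, and the 5 kb above its 5′ end held none in any library. Over its span alone, and with equal numbers of peaks, H19 also overlapped between the groups. In the second case control library 2 held none.

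Most of the peak length of the H19 domain lay between its members. The 176 kb from H19 to INS were covered over 15.6 and 16.7% with lactate and over 36 and 34.1% in control libraries, a ratio of 0.46. Of that length, 20520 and 21659 bp with lactate and 48663 and 46682 bp in control libraries lay outside the member windows. The number of peaks in the domain was 36 and 44 with lactate and 29 and 39 in control libraries, so that the lactate peaks were about as many and narrower.

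On chromosome 8 the potassium channel gene KCNK9 lies beside TRAPPC9, which encodes a subunit of a membrane transport complex and holds the noncoding RNA gene PEG13 in its span. TRAPPC9 (731 kb) held 88 and 83 peaks over 48618 and 44359 bp with lactate and 109 and 107 peaks over 77629 and 69971 bp in control libraries. The groups did not overlap in number or in length (46488 ± 3012 against 73800 ± 5415 bp, SD, n = 2 each; ratio 0.63). The best fold enrichment at TRAPPC9 ran the other way, at 18.2 and 20.3 with lactate and 14.2 and 16 in control libraries. Of its regions, 19 held a peak in both control and neither lactate library, and 4 in both lactate and neither control library. KCNK9 held 6133 and 6710 bp of peaks with lactate and 15592 and 12969 bp in control libraries (ratio 0.45), again without overlap. The peaks of TRAPPC9 were denser on its lower side, where 10.3 and 9.87% of the 367 kb below PEG13 were covered with lactate and 16 and 15% in control libraries. Above PEG13, 2.7 and 1.99% of 358 kb were covered with lactate and 4.36 and 3.21% in control libraries.

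Unlike KCNQ1OT1 in KCNQ1, PEG13 was the most covered of the parts compared in its host, but it was also by far the shortest. Stretches of like length elsewhere in TRAPPC9 were not compared as a set. A region on the lower side (139771599 to 139775871) held 2052 and 1414 bp of peaks with lactate and 3700 and 3015 bp in control libraries. The PEG13 span held 1277 and 1009 bp with lactate and 3255 and 3265 bp in control libraries. The 5.64 kb span of PEG13 was covered over 22.6 and 17.9% with lactate and over 57.7 and 57.9% in control libraries. These shares were above those of either side of TRAPPC9 in every library. In control libraries a single peak of 3645 and 3597 bp lay over the upper part of PEG13 and ran past its upper end. The lactate libraries had 3 and 2 peaks in the span, of at most 728 and 521 bp. The best summit of PEG13 had 17 and 18 reads with lactate and 26 and 30 reads in control libraries. PEG13 was thus lower in both lactate libraries in width, in covered length (1805 and 1337 bp with lactate, 4571 and 3597 bp in control libraries, ratio 0.385) and in reads at the summit.

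**Figure D4:**
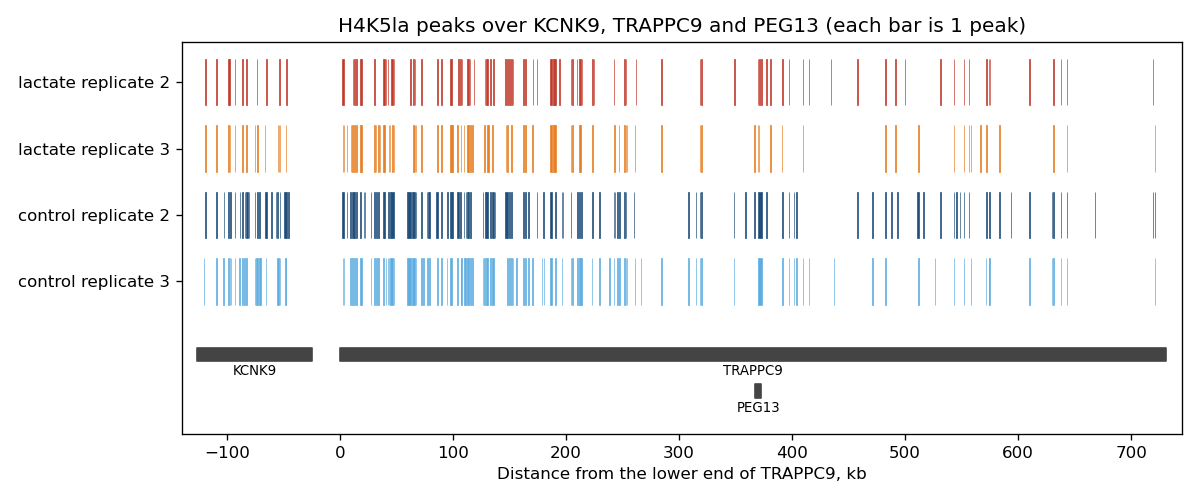
Peaks of each library over KCNK9, TRAPPC9 and PEG13 on chromosome 8, by distance in kb from the lower end of TRAPPC9; each bar is 1 peak within 5 kb of these genes, drawn no narrower than its thin outline, and dark boxes are gene spans. Peaks crowd the lower side of TRAPPC9 in all 4 libraries, and the control peaks over PEG13 are 3645 and 3597 bp wide.

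IGF2R, the receptor gene that clears IGF2, holds the RNA gene AIRN in its span on chromosome 6. IGF2R held 5448 and 5110 bp of peaks with lactate and 7529 and 6582 bp in control libraries (5279 ± 239 against 7056 ± 670 bp, SD, n = 2 each; ratio 0.748). All of them lay above AIRN. The 4.37 kb of AIRN and the 34.2 kb of IGF2R below it were at 0 in every library, and the nearest peak to AIRN was 19.4 and 19.4 kb away with lactate and 33 and 19.4 kb away in control libraries. AIRN acts as a silencing RNA in mouse, and IGF2R imprinting in human varies between people.

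**Figure D5:**
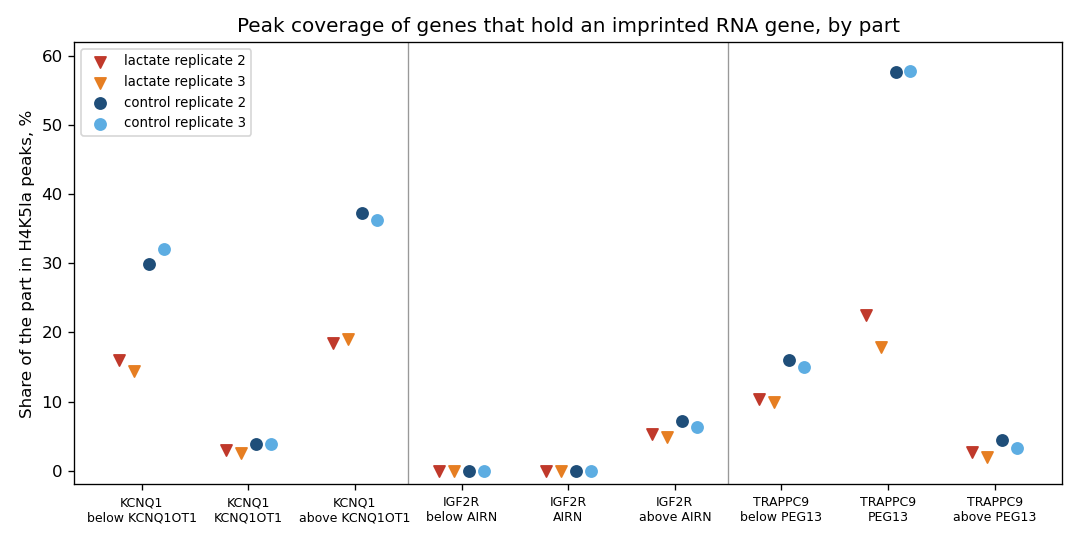
Share of 3 genes in H4K5la peaks, in percent, split into the part below, the span of, and the part above the imprinted RNA gene inside each; triangles are lactate and circles control libraries. KCNQ1OT1 is the least covered part of KCNQ1 (2.57 to 3.8%), AIRN is at 0, and PEG13 is the most covered part of TRAPPC9 (57.7 and 57.9% in control libraries). The PEG13 part is 5.64 kb long, against 367 and 358 kb for the parts beside it.

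On chromosome 14, DLK1, a growth regulator related to Notch ligands, and the long noncoding RNA gene MEG3 are neighbours. MEG3 held 754 and 1288 bp of peaks with lactate and 2289 and 5607 bp in control libraries (1021 ± 378 against 3948 ± 2346 bp, SD, n = 2 each), and its ratio of 0.259 was the lowest of the members with a peak in every library. The groups did not overlap, but the control libraries differed widely from each other. The region that carried most of the MEG3 signal (100834747 to 100838064) held 412 and 944 bp of peaks with lactate and 1931 and 3232 bp in control libraries. The largest number of reads at a summit of MEG3 was 17 and 22 with lactate and 23 and 24 in control libraries, also without overlap. DLK1 held 661 and 797 bp with lactate and 1417 and 2050 bp in control libraries (ratio 0.421). A peak at the upper end of DLK1 was present in all 4 libraries, and a region inside the gene (100733841 to 100734668) only in both control libraries. With equal numbers of peaks control library 2 had none at DLK1, the ratio was 1.21 and the groups overlapped.

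RTL1, a gene derived from a retrotransposon, held 1556 and 699 bp of peaks with lactate and 3025 and 2306 bp in control libraries (ratio 0.423), without overlap. The noncoding RNA gene MEG8, whose window overlaps that of RTL1, held 897 and 0 bp with lactate and 810 and 659 bp in control libraries, where the groups overlapped. DIO3, which encodes the enzyme that inactivates thyroid hormone, held none, and its nearest peak was 6.41 and 20.5 kb away with lactate and 6.4 and 6 kb away in control libraries. Over the 847 kb of the cluster, 26631 and 21562 bp were covered with lactate and 42448 and 41744 bp in control libraries (ratio 0.572), most of it between the member windows.

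The reference used here listed 11 miRNA hairpins in the windows, and hairpins missing from it were not looked for. Of these 11, 2 lie under a peak, both in the 14q32 cluster. MIR431, a hairpin in the RTL1 span, lay under a peak of 699 bp in lactate library 3 and under peaks of 1356 and 962 bp in the control libraries. MIR136 lay under a peak of 320 bp in lactate library 2 only. Their mature miRNAs are shown because they name what these peaks lie on, with the seed (bases 2 to 8) in capitals; the 4 seeds differ from each other, and the sequences are from RefSeq on GRCh38.p14.
hsa-miR-431-5p: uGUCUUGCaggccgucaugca
hsa-miR-431-3p: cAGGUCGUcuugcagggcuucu
hsa-miR-136-5p: aCUCCAUUuguuuugaugaugga
hsa-miR-136-3p: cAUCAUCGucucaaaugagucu

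The Prader-Willi and Angelman region of chromosome 15 was thinly covered. Over its 2309 kb, 0.603 and 0.463% was covered with lactate and 0.912 and 0.825% in control libraries (ratio 0.614). The region held 31 and 25 peaks with lactate and 38 and 35 peaks in control libraries. Outside the member windows lay 6356 and 5246 bp of peaks with lactate and 13672 and 11526 bp in control libraries. SNHG14, the long noncoding RNA gene that holds SNRPN, had 3616 and 3683 bp of peaks with lactate and 11066 and 8703 bp in control libraries. ATP10A, a phospholipid flippase gene at the end of the cluster, held 6850 and 4488 bp with lactate and 6429 and 6558 bp in control libraries (ratio 0.873), so the groups overlapped. SNRPN, which encodes a spliceosome protein and whose start lies in the imprinting centre, held 1 peak common to the 4 libraries, 364 and 423 bp wide with lactate and 385 and 434 bp wide in control libraries. This peak began 54.6 and 54.6 kb above the lower end of SNRPN with lactate and 54.5 and 54.6 kb above it in control libraries. With a further peak in lactate library 2, SNRPN held 725 and 423 bp with lactate and 385 and 434 bp in control libraries, which overlapped.

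UBE3A, the ubiquitin ligase gene of Angelman syndrome, and NDN and MAGEL2, MAGE family genes expressed from the paternal copy, held none in any library. The nearest peak to UBE3A was 29.6 and 29.5 kb away with lactate and 86.7 and 81.7 kb away in control libraries. For NDN it was 391 and 119 kb away with lactate and 119 and 119 kb away in control libraries, and for MAGEL2 431 and 77.1 kb with lactate and 77.2 and 77.2 kb in control libraries. MKRN3, a ubiquitin ligase gene of puberty timing, held a peak over its span in lactate library 3 and both control libraries.

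Apart from genes of at least 100 kb and KCNQ1OT1 inside KCNQ1, only MCTS2 and GNAS, both on chromosome 20, had a region with a peak in both lactate and neither control library. MCTS2 is a retrogene of a translation factor inside HM13, and its region lies at 31547242 to 31547651, with peaks of 410 and 328 bp in the lactate libraries and fold enrichments of 8.83 and 7.85. It covers the start of MCTS2. A second peak near the upper end of the window was present in lactate library 3 and both control libraries. The window as a whole held 410 and 684 bp with lactate and 425 and 358 bp in control libraries, so the groups overlapped. Counted over the gene span alone, MCTS2 had a peak in both lactate and neither control library. The MCTS2 promoter is shown because it is the only 1 of 60 member promoter windows with a peak in both lactate and neither control library (0.332% of all promoter windows have this pattern); it lies on the plus strand at chr20:31547129-31547428 and holds 27 CG pairs, in capitals.
MCTS2 promoter: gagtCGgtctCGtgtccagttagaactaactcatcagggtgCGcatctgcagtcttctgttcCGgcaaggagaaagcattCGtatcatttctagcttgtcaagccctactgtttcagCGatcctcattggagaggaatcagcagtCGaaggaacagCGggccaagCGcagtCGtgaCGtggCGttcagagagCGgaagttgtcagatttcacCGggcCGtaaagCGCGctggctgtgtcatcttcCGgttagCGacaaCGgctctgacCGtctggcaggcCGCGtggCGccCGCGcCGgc

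GNAS encodes the stimulatory G protein alpha subunit and has several imprinted starts. Its window held 1520 and 1160 bp of peaks with lactate and 980 and 1204 bp in control libraries (ratio 1.23), with overlap of the groups. The place of the peaks differed between the groups. A region at 58881995 to 58882572 held peaks of 578 and 455 bp in the lactate libraries (fold enrichment 12.5 and 9.24) and none in control libraries, while one at 58851534 to 58852098 held none with lactate and peaks of 542 and 417 bp in control libraries (fold enrichment 4.18 and 4.16). Another region at 58855388 to 58856111 held a peak in every library. With equal numbers of peaks GNAS was covered more in both lactate libraries, at 1520 and 1160 bp, against 542 and 417 bp in control libraries (ratio 2.79).

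NNAT, a neuronal proteolipid gene, lies inside BLCAP, and their windows hold the same peaks, 817 and 492 bp with lactate and 1341 and 2149 bp in control libraries (ratio 0.375). The groups did not overlap with all peaks and did with equal numbers of peaks, and for NNAT also over its span alone. In every library a peak lay on a start of BLCAP, 503 and 492 bp wide with lactate and 528 and 423 bp wide in control libraries. Unlike the window total, the width at that start overlapped between the groups. The BLCAP promoter window is shown as the other member window with a peak in all 4 libraries; it lies on the minus strand at chr20:37527683-37527982, holds 30 CG pairs (capitals) and has a G and C share of 68.7%.
BLCAP promoter: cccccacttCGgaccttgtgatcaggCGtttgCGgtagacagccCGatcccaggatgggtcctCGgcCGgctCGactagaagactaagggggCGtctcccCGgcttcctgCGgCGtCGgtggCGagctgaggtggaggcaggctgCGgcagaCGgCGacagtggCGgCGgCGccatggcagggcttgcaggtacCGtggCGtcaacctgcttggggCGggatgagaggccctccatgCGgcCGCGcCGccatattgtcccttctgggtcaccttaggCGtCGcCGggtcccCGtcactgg

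L3MBTL1, a chromatin reader gene also on chromosome 20, held 502 and 318 bp of peaks with lactate and 744 and 1270 bp in control libraries (ratio 0.407). Its best summit had 9 and 10 reads with lactate and 22 and 26 reads in control libraries. Neither measure overlapped, and 2 of its regions held a peak in both control and neither lactate library.

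GRB10, which encodes an adaptor that restrains insulin receptor signalling, was the longest covered member of chromosome 7. It held 7185 and 6384 bp of peaks with lactate and 10760 and 9419 bp in control libraries (6784 ± 566 against 10090 ± 948 bp, SD, n = 2 each; ratio 0.672). The groups did not overlap with all peaks, and did with equal numbers of peaks, at 7185 and 6384 bp with lactate against 6853 and 8850 bp in control libraries. PEG10, a retrotransposon-derived gene, held 905 and 1264 bp with lactate and 1831 and 810 bp in control libraries, which overlapped. Its main region (94663630 to 94664660) held a peak in every library. The adjoining SGCE, a sarcoglycan gene, held a peak near the PEG10 start in lactate library 3 and control library 2 only. MEST, a gene of the hydrolase family, held a peak of 479 bp over its lower end in lactate library 3, and peaks of 455 and 871 bp in the control libraries. COPG2, a coat protein gene that converges on MEST, held none in any library.

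The zinc finger genes ZIM2 and PEG3 share a start on chromosome 19, and the peak near it was wider in both lactate libraries. It covered 837 and 912 bp with lactate and 0 and 665 bp in control libraries (874 ± 53 against 332 ± 470 bp, SD, n = 2 each; ratio 2.63). Its summit had 33 and 39 reads with lactate and 24 reads in control library 3. ZIM2 and PEG3 were covered more in both lactate libraries with equal numbers of peaks as well.

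RB1, the retinoblastoma tumour suppressor, held none with lactate and 801 and 424 bp of peaks in control libraries. Its summits in control libraries had at most 16 and 17 reads, against a median of 23 and 23 reads over all peaks of those libraries. With equal numbers of peaks only control library 2 held a peak at RB1. WT1, the Wilms tumour transcription factor gene, held 601 and 1123 bp with lactate and 1933 and 2155 bp in control libraries (862 ± 369 against 2044 ± 157 bp, SD, n = 2 each; ratio 0.422). The largest number of reads at a summit of WT1 was 36 and 41 with lactate and 23 and 26 in control libraries, but the best fold enrichment was 2.28 and 8.3 with lactate and 8.8 and 7.92 in control libraries, with overlap of the groups. A region at 32426440 to 32428218 carried most of the control signal, with 0 and 369 bp of peaks with lactate and 1604 and 1779 bp in control libraries. An internal start of WT1 lay under a peak in both lactate libraries and control library 3; its promoter window is shown for this, on the minus strand at chr11:32430764-32431063, with 20 CG pairs in capitals.
WT1 promoter: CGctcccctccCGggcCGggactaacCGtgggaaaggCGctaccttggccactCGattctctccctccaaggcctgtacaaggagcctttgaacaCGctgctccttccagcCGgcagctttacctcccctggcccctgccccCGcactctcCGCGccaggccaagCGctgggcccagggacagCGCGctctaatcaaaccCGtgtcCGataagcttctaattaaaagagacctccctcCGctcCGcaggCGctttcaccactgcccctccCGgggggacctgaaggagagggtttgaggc

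PLAGL1, a zinc finger gene of transient neonatal diabetes, held 361 and 451 bp of peaks with lactate and 334 and 1370 bp in control libraries, which overlapped. DIRAS3, a RAS-related tumour suppressor, and ZDBF2, a zinc finger gene, held none in any library. The nearest peak to ZDBF2 was 115 and 115 kb away with lactate and 71.6 and 71.8 kb away in control libraries. In all, 9 members held no peak in any library, namely CDKN1C, DIO3, NDN, MAGEL2, UBE3A, COPG2, DIRAS3, AIRN and ZDBF2.

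Promoter windows (250 bases before to 50 after a start) were available from RefSeq for 26 members, 60 windows in all. Some windows of the same gene overlap, as those of MEG3 do, so 1 peak or site can count in several windows. Of these, 13 windows of 7 members held a peak in any library (MEST, INS, WT1, MEG3, MCTS2, BLCAP and GNAS). Only the INS window and 1 BLCAP window had a peak in all 4 libraries, or 2 of 60, against 2.83% of 34961 promoter windows of all genes. The median number of CG pairs was 19.5 in member windows and 14 in all windows. On either strand, TGCCGC, the letters bound by ZFP57 when methylated, was found in 23 of 60 member windows (38.3%, against 16.8% of all windows), and AANATGGC, a YY1 motif, in 6 (10%, against 6.58%). TGCCGC is present in the INS and BLCAP windows printed above and absent from those of WT1 and MCTS2, and AANATGGC is present in the BLCAP window alone of these 4. These are matches of letters, and binding was not measured.

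Reads at the summit were compared by the highest summit in each window, which need not lie at the same place in each library. Among the 25 members with a peak in every library, the largest number of summit reads was higher in both lactate libraries at 8 (GRB10, PEG10, KCNK9, INS, KCNQ1, WT1, MCTS2 and GNAS), against 23.3% of protein-coding genes with a peak in every library. It was lower in both lactate libraries at 3 (PEG13, MEG3 and L3MBTL1), against 16.3%. These are read numbers not scaled for depth or local background. Of those 8, GRB10, PEG10, KCNQ1, MCTS2 and GNAS also had a higher best fold enrichment in both lactate libraries. At KCNK9 and WT1 the best fold overlapped between the groups, and at INS it was lower in both lactate libraries. PEG13, MEG3 and L3MBTL1 were lower in both lactate libraries in covered length, summit reads and best fold.

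By cluster, 11 of 19 imprinted clusters were covered less in both lactate libraries, 1 was covered more (ZIM2 and PEG3) and 7 overlapped. Several clusters hold 1 member and repeat its call, and no share of like spans elsewhere was computed. Over all gene windows the ratio was 0.528. Within the member windows of 15q11-q13 the groups overlapped, at 7575 and 5442 bp with lactate and 7393 and 7523 bp in control libraries. A peak in every library was found in 14 clusters, and 2 had none in any library (DIRAS3 and ZDBF2). The lowest ratios among clusters with several peaks in each library were those of the 2 domains of chromosome 11, 0.444 and 0.46, and the 8q24 cluster had a ratio of 0.6.

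Further imprinted genes and the machinery of imprinting were read beside the members. Of 30 other imprinted genes, 11 held a peak in all 4 libraries (19% of all genes and 33% of protein-coding genes do). Covered less in both lactate libraries were 12 (19.3% of all genes and 32.8% of protein-coding genes). MIMT1, a noncoding RNA gene beside PEG3, was covered more, through the same peak as ZIM2 and PEG3. The peaks of IGF2-AS likewise lie in the IGF2 window, so this list is not separate from the members. Set beside the same shares of all and of protein-coding genes, 9 of 23 genes that regulate imprinting held a peak in all 4 libraries. Among these 9 were the methyltransferase genes DNMT1, DNMT3A and DNMT3B and the DNMT1 partner UHRF1. Of the 23, 11 were covered less and 0 more. The genes of the zinc finger proteins ZFP57 and ZNF445, which keep imprints methylated, held none in any library.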

How the data were processed

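H4K5la ChIP-seq peak lists of 4 libraries were used. The submitters' processing notes name MACS2 2.2.6, Picard 2.18.11, SAMtools 1.9, Bowtie2 2.3.4.2, Trimmomatic 0.38 and FastQC 0.11.7, with the build hg38, and without a role featureCounts 1.6.3 and RSEM. The authors called peaks per library and deposited for each peak a score, the fold enrichment at its summit (a ratio to background), and p and q as -log10 values. The smallest -log10 q was 2.0 to 2.02. A region without a peak may carry the mark below that threshold.

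Lists were read with Python 3.11.15, pandas 2.3.3, numpy 2.4.6 and scipy 1.17.1, and plotted with matplotlib 3.10.9. Reads at each summit were recovered from fold and -log10 p by the caller's formula, searching for the scaling factor of each library. Whole numbers were found for all but 2, 2, 0 and 1 peaks (lactate 2, lactate 3, control 2, control 3; tolerance 0.001), and the inverse factor is the number of ChIP reads per input read. Gene spans came from RefSeq (GRCh38.p14), without exons, so exonic and intronic positions were not assigned. A gene was called covered less or more when both lactate libraries lay beyond both control libraries. The scripts were tested on simulated data.

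The members and lists were chosen with earlier results of these data known. Values per library are given for the 12 most covered members, for nested or antisense pairs, and for members with a treatment-specific pattern or a peak on a promoter. Other members, regions and summit reads were named, and coding and long genes added as backgrounds, after values were seen. Same-numbered libraries did not deviate together (r = -0.00579 over 22697 genes), so replicates were not paired.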

Additional observations from a re-analysis of the deposited data

How the results depend on the processing

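Counts of members are given as in the report, over 42 genes. Shares of all genes under the same setting were computed for equal numbers of peaks only, so counts under the other alternatives stand without a background. With peaks of -log10 q of at least 5, 2 genes had a peak in both control libraries only and 2 in both lactate libraries only (ZIM2 and PEG3), and the ratios over the merged windows were 0.532 for covered length and 0.776 for the number of peaks. With the lists held to equal numbers of peaks these values were 0 genes, 2 genes, 0.689 and 1.12, the last in the opposite direction. In that setting 12 genes were covered less, against 12.4% of all genes and 21% of protein-coding genes. Holding the lists to equal numbers removes the weakest control peaks by construction. Over all gene windows the ratio of covered length was 0.515 with -log10 q of at least 5 and 0.659 with equal numbers of peaks. Gene spans without flanks gave 15 genes covered less, without H19, INS, PHLDA2, NAP1L4 and NNAT. They also gave 1 gene with a peak in both lactate libraries only (MCTS2). Flanks of 20 kb gave 26 genes covered less and 1 gene covered more. A peak in all 4 libraries was held by 21 genes with -log10 q of at least 5 and by 23 with equal numbers of peaks. Without flanks 20 genes held one, and with flanks of 20 kb 28 genes did, against 25 in the main setting. Without KCNQ1, KCNQ1OT1, TRAPPC9 and PEG13, an alternative chosen after seeing the data, the ratio of peak numbers was 0.77. Where no value shows the cause, the cause was not tested. KCNQ1, MEG3, RTL1, L3MBTL1, IGF2R, KCNK9, PEG13, TRAPPC9 and WT1 were covered less in all 10 alternatives. Leaving out a library or pairing libraries by number cannot undo such a call, so only the other alternatives could have changed it.

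Leaving out each library in turn gave 25 to 27 genes with a peak in all libraries, 1 to 3 with one in control only, 0 to 2 in lactate only, 22 to 23 covered less and 3 to 6 covered more. By the rules used, leaving out a library can add to each of these counts but cannot lower it. The ratios were 0.545 to 0.574 for covered length, 0.813 to 0.836 for peak numbers and 0.526 to 0.53 over all gene windows. Control-only genes numbered 2, 3 and 2 without lactate library 2, lactate library 3 and control library 2. Genes covered more numbered 3, 6, 4 and 5 without lactate library 2, lactate library 3, control library 2 and control library 3, and without control library 3 ZIM2 and PEG3 had peaks in lactate only. With the replicate block, pairing libraries by number, 25 genes had a peak in all libraries, 21 were covered less and 2 more, and the ratios stayed at 0.559, 0.824 and 0.528. The effect of depth was not tested; the smallest summits had 7 and 8 reads in lactate libraries and 9 and 9 in control libraries.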
